A study of Mus musculus with 2 samples.

Results

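Cholesterol synthesis genes were followed through the single-nucleus RNA sequencing (snRNA-seq) of the brainstem of 1 wild-type (WT) and 1 heterozygous (HET) mouse. The group holds 8 listed genes of the 25556 in the count table: *Hmgcs1*, *Idi1*, *Fdft1*, *Sqle*, *Lss*, *Cyp51*, *Dhcr7* and the regulator *Srebf2*. All 8 were found, and all 8 passed the minimum of 200 unique molecular identifiers (UMIs, 1 per captured RNA molecule) in the 2 libraries together. The rule that lists them uses no measured value, but the list was written by hand with earlier results of these data known.

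The HET mouse carried the *Scn1a* A1783V allele over a wild-type allele, a knock-in that models Dravet syndrome, a severe epilepsy of childhood. *Scn1a* encodes the alpha subunit of the voltage-gated sodium channel Nav1.1. The allele came from a floxed *Scn1a* male crossed with a Sox2-Cre female. Sox2-Cre acts in the early embryo, so the knock-in is not limited to 1 cell type. The WT mouse was a littermate without the knock-in. Both mice were female, untreated, on the C57BL/6J background and 41 days old. With 1 library per genotype, genotype, animal, dissection and library cannot be told apart, and no test between genotypes exists. Every interval given here is an exact 95% interval that covers counting error only.

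Cholesterol is built from acetyl-CoA through mevalonate, isoprenoid units, squalene and lanosterol. The enzymes of this route are driven by SREBP2, the product of *Srebf2*, which is held in the endoplasmic reticulum by the INSIG proteins while sterols are plentiful and moves to the nucleus when they run low. The brain makes its own cholesterol because lipoproteins hardly cross the blood-brain barrier. Oligodendrocytes need it for myelin, and astrocytes are the main source for adult neurons.

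The WT library held 9259 nuclei and 70301390 UMIs, and the HET library held 9022 nuclei and 66176778 UMIs. Levels are counts per 1000000 UMIs of the same nuclei (CPM). *Scn1a* was at 380 CPM in the WT and 420 CPM in the HET library, but these counts do not separate the alleles and so do not check the genotype. The 2 libraries shared 23 cell barcodes. Nuclei in the cluster named oligo made up 19.1% of the WT and 26.4% of the HET library, those in astro 6.58% and 7.86%, and those in neuronal clusters 66.1% and 59.8%. The names were checked against fixed markers: 5 oligodendrocyte markers, among them *Mog*, *Mag*, *Mbp* and *Mobp*, summed to 10971 CPM in WT and 12891 CPM in HET oligo nuclei, against 495 and 580 CPM in neuron.1, the largest neuronal cluster. A second deposited label named oligodendrocytes for 4131 of the 4149 oligo nuclei and astrocytes for 1288 of the 1318 astro nuclei, but microglia for only 108 of the 405 nuclei of micro and endothelial cells for 209 of the 344 of endo. The median share of ribosomal protein UMIs per nucleus was 0.696% in WT and 0.407% in HET and that of mitochondrial UMIs 0.343% and 0.458%, and the part of these differences in the ratios given here was not tested. RNA of other cells was present in each cluster and differed between libraries. The 4 neuronal markers summed to 1252 CPM in WT and 1726 CPM in HET oligo nuclei, and 3 choroid plexus markers summed to 717 CPM in WT and 90.02 CPM in HET oligo nuclei.

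The promoters of 6 of the 8 genes had an entry in RefSeq (GRCm38.p6), all but those of *Sqle* and *Fdft1*. The 4 shown here were chosen among the 8 genes. They belong to the enzyme that comes first in the route, the 2 enzymes with the highest HET over WT ratio over all nuclei, and the regulator. Each runs 5′ to 3′ on the strand of its gene from 250 bases before the start to 50 after it, and capitals mark exact matches on either strand to the sterol regulatory element core TCACNCCAC, to CCAAT, which binds NF-Y, and to GGGCGG, the GC box.
Hmgcs1 (chr13:119690101-119690400, plus strand): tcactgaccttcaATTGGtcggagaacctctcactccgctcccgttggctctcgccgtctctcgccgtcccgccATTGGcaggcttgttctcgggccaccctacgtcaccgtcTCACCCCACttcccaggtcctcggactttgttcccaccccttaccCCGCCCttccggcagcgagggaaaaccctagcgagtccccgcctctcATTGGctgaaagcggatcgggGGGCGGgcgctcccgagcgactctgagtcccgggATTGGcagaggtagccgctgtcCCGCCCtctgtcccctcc
Idi1 (chr13:8885356-8885655, plus strand): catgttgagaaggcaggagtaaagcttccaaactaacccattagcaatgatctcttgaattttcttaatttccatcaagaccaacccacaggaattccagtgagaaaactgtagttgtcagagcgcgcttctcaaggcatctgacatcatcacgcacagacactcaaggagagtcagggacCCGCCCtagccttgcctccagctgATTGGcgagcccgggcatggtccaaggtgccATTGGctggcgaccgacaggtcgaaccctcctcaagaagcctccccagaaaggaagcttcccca
Cyp51 (chr5:4104648-4104947, minus strand): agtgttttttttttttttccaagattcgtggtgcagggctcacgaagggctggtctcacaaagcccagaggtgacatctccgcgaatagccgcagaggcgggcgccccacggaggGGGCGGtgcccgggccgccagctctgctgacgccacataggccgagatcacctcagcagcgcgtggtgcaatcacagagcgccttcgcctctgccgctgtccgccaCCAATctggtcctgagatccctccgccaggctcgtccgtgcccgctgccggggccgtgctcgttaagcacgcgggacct
Srebf2 (chr15:82147019-82147318, plus strand): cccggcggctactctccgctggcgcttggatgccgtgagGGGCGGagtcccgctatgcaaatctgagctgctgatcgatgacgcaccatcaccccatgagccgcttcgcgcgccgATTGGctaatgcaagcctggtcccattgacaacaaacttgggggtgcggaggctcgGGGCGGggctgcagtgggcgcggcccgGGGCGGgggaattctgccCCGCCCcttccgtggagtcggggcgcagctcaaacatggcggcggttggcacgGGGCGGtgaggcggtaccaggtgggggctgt

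The sterol element core was matched in 1 of the 6 genes, *Hmgcs1*, at position -137 from the start, and 1.24% of 32851 mouse promoters of the same length hold it. CCAAT was matched in all 6 genes, as in 37.4% of all promoters, and GGGCGG in all 6, as in 35.7%. *Dhcr7* has 3 annotated starts, and 6 of the 8 starts of the 6 genes held CCAAT and 7 held GGGCGG. A missing match says only that these letters are not in the window.

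The genes lie on 6 chromosomes of the mm10 build (GENCODE vM21) and are of short to middle length. *Hmgcs1* spans chr13:119690379-119708260 (17.9 kb, plus strand), *Idi1* chr13:8885501-8892451 (6.95 kb, plus strand), *Fdft1* chr14:63145150-63179578 (34.4 kb, minus strand) and *Sqle* chr15:59315077-59331192 (16.1 kb, plus strand). *Lss* spans chr10:76531588-76557138 (25.6 kb, plus strand), *Cyp51* chr5:4081145-4104746 (23.6 kb, minus strand), *Dhcr7* chr7:143823145-143848410 (25.3 kb, plus strand) and *Srebf2* chr15:82147181-82205379 (58.2 kb, plus strand). Several share bases with other genes. *Fdft1* overlaps *Ctsb* and *Cyp51* overlaps *Akap9* on the opposite strand, *Hmgcs1* and *Lss* overlap the antisense genes *Gm48342* and *4930483K19Rik*, *Idi1* overlaps *Gm48574*, and *Srebf2* overlaps *Mir33* and *Gm49502*. How the counting used strand was not given in the sources used here, so reads of overlapping genes could be assigned to either: *Ctsb* had 5590 UMIs in WT and 4104 in HET, *Akap9* 13905 and 14848, *Gm48342* 423 and 593, and *4930483K19Rik* 50 and 59.

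In CPM, most of the genes stood highest in glia. In each library the levels of each gene were ordered over the 12 clusters with at least 30 nuclei per library. Astro ranked first for 5 of the 8 genes in WT and for 4 in HET, and oligo ranked among the top 2 for 6 genes in WT and for 7 in HET. Many neighbours in these orders had overlapping intervals, above all among the small clusters.

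*Hmgcs1*, which condenses acetoacetyl-CoA and acetyl-CoA to HMG-CoA, was at 134 CPM (119 to 151) in WT astro and 120 CPM (107 to 134) in HET astro nuclei. In oligo it was at 90.9 CPM (83.3 to 98.9) in WT and 118 CPM (111 to 126) in HET, and in neuron.1 at 43.3 and 41.4 CPM. Astro thus stood above oligo beyond counting error in WT, but their intervals overlapped in HET. The lowest levels were in neuron.2 in WT (25.0 CPM) and in neuron.3 in HET (24.5 CPM).

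*Idi1*, which interconverts the isopentenyl and dimethylallyl diphosphates, followed the same order. It was at 51.6 CPM (42.3 to 62.2) in WT and 54.9 CPM (46.3 to 64.7) in HET astro nuclei, at 32.7 and 49.6 CPM in oligo, and at 17.8 and 22.6 CPM in neuron.1. *Fdft1*, squalene synthase, was at 79.0 and 99.9 CPM in astro, at 74.8 and 89.5 CPM in oligo, and at 36.3 and 37.0 CPM in neuron.1. The intervals of astro and oligo overlapped for *Fdft1* in both libraries.

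*Sqle*, the squalene epoxidase that adds the first oxygen, was at 53.4 CPM in WT and 67.7 CPM in HET oligo nuclei, at 53.0 and 44.2 CPM in astro, and at 29.2 and 28.2 CPM in neuron.1. Its highest WT level was in epend.1, at 61.2 CPM from 26 UMIs, with an interval (40.0 to 89.6) that included the oligo level. *Cyp51*, the lanosterol demethylase, was at 111 and 143 CPM in oligo, at 116 and 141 CPM in astro, and at 65.5 and 73.0 CPM in neuron.1. In both libraries *Cyp51* levels in astro and oligo overlapped with each other and lay above those of all other clusters with more than 100 of its UMIs.

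*Lss* departed from this order, more so in WT. *Lss*, lanosterol synthase, which closes the sterol rings, was at 23.2 CPM in WT and 23.1 CPM in HET neuron.1 nuclei, at 22.4 and 28.3 CPM in oligo, and at 12.8 CPM (8.42 to 18.6) and 25.0 CPM (19.3 to 31.8) in astro. In WT, neuron.1 ranked first for *Lss*, with an interval that overlapped that of oligo, and astro ranked below neuron.1 beyond counting error. In HET, neuron.7 ranked first for *Lss*, at 33.5 CPM (17.8 to 57.3) from 13 UMIs, and the intervals of astro and neuron.1 overlapped. *Dhcr7*, which makes cholesterol from 7-dehydrocholesterol, was at 25.7 and 21.7 CPM in neuron.1, at 26.7 and 26.0 CPM in oligo, and at 30.3 and 33.8 CPM in astro. Among these clusters its level ran from astro down to oligo and neuron.1 in both libraries. The intervals of astro and oligo overlapped in both libraries, and so did those of oligo and neuron.1. Those of astro (27.1 to 41.7) and neuron.1 (20.3 to 23.2) were apart in HET but not in WT.

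*Srebf2* was at 129 CPM (119 to 138) in WT and 122 CPM (115 to 130) in HET oligo nuclei, at 104 and 108 CPM in astro, and at 83.7 and 71.2 CPM in neuron.1. Its highest WT level was in neuron.4, at 132 CPM (117 to 149), where HET nuclei were at 54.3 CPM (48.1 to 61.0). That WT value came in large part from 4 nuclei, as described below for single nuclei.

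**Figure D1:**
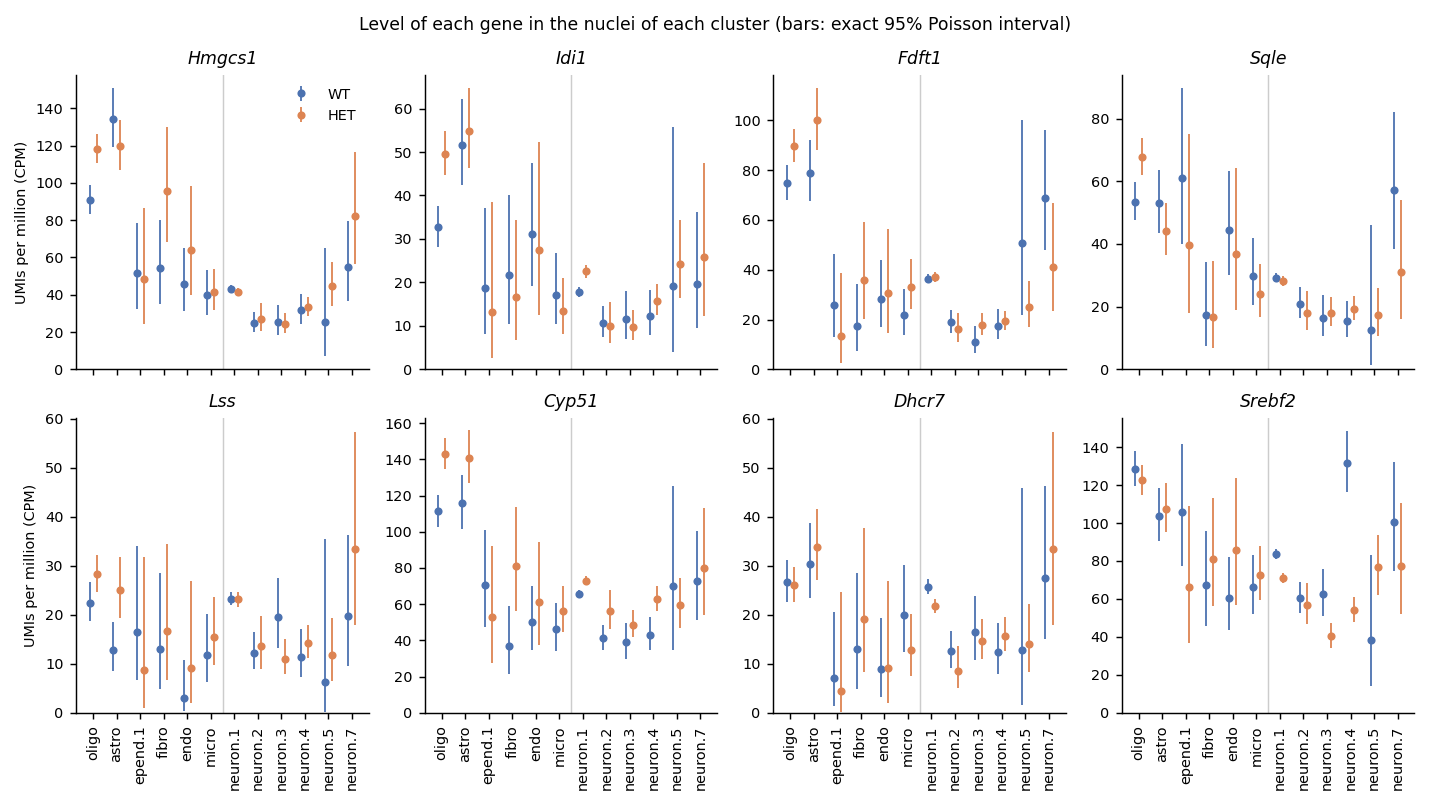
Level of each gene (CPM, linear axis from 0) in the 12 clusters with at least 30 nuclei per library, with WT in blue and HET in orange. Points are the value of 1 library and bars the exact 95% Poisson interval. *Hmgcs1*, *Idi1*, *Fdft1* and *Cyp51* stand above neuron.1 in oligo and astro, *Lss* in WT astro lies below neuron.1, and WT neuron.4 stands out for *Srebf2* at 132 CPM.

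The ratio of oligo to neuron.1 in CPM had a median over the 8 genes of 1.76 in WT (0.965 to 2.10) and 2.08 in HET (1.20 to 2.86). The interval of the ratio lay above 1 for 6 of the 8 genes in WT and for 8 in HET, where 31.0% and 31.3% of all genes tested stood above 1 in the same way. The exceptions in WT were *Lss* (0.965) and *Dhcr7* (1.04). For astro over neuron.1 the median was 1.79 in WT and 1.75 in HET, with 6 and 7 genes above 1 against 27.7% and 27.0% of all genes. *Lss* in WT was the gene below 1, at 0.55 (0.361 to 0.804). The shares of all genes in these ratios are over genes with at least 200 UMIs in the 2 clusters of a library together. Those genes were not matched in depth to the 8, and more UMIs give narrower intervals.

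This order holds in CPM and not per nucleus. Nuclei of neuron.1 held a median of 7753 UMIs in WT and 8509 in HET, those of oligo 2738 and 2854, and those of astro 2963 and 3318. Counted as UMIs per nucleus, the median oligo to neuron.1 ratio was 0.607 in WT and 0.691 in HET, and all 8 genes were below 1 in both libraries. For astro the medians were 0.648 and 0.644, and *Hmgcs1* stayed above 1 in both libraries (1.12 and 1.07). So a neuron.1 nucleus held on average more UMIs of each of the 8 genes than an oligo nucleus, although for most of them a smaller share of its UMIs.

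**Figure D2:**
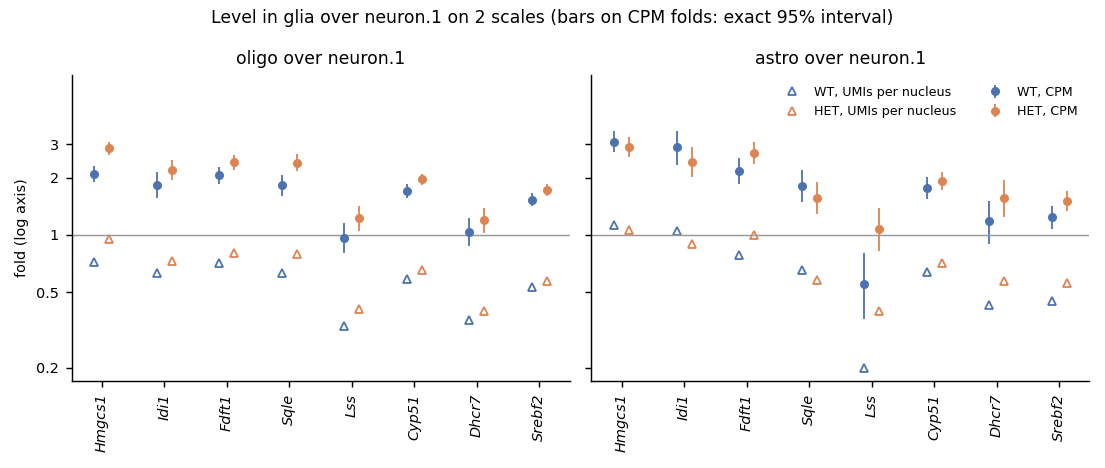
Ratio of the oligo (left) and astro (right) level to that of neuron.1 for each gene, on a log axis, with filled circles for CPM (bars: exact 95% interval) and open triangles for UMIs per nucleus, WT in blue and HET in orange. CPM ratios lie mostly above 1 and ratios per nucleus mostly below it, with WT medians of 1.76 and 0.607 for oligo.

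The same order appeared at equal depth for *Hmgcs1* and *Cyp51*. When each nucleus was thinned to 1000 UMIs, *Hmgcs1* was seen in 4.59% of WT and 4.26% of HET neuron.1 nuclei, 8.22% and 10.3% of oligo nuclei, and 12.2% and 10.99% of astro nuclei. Without thinning these shares were 30.2% and 30.5%, 21.6% and 27.2%, and 33.8% and 31.0%. *Cyp51* after thinning was seen in 6.87% and 7.67% of neuron.1, 10.2% and 13.0% of oligo, and 10.99% and 12.8% of astro nuclei, from 42.0% and 48.0%, 27.3% and 34.3%, and 28.9% and 36.5% before it. Free RNA adds to such shares, by an amount that differs between genes: *Rbfox3*, a neuronal gene, was seen in 1.60% of WT and 3.49% of HET oligo nuclei after thinning, against 17.7% and 21.3% of neuron.1 nuclei. Thinned shares of *Idi1* (3.03% and 4.65%), *Lss* (2.12% and 2.52%) and *Dhcr7* (2.50% and 2.44%) in oligo were low, and no order was read from them.

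Neuronal nuclei nevertheless held most of these transcripts. Their share of a gene's UMIs ran from 72.2% for *Hmgcs1* to 87.1% for *Lss* in WT and from 60.4% for *Hmgcs1* to 77.6% for *Lss* in HET. Neuronal nuclei held 84.3% and 80.5% of all UMIs. Oligo nuclei held 15.4% of the *Hmgcs1* UMIs in WT and 26.9% in HET, from 8.31% and 11.9% of all UMIs.

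Over all nuclei, 6 of the 8 genes were higher in the HET than in the WT library and 2 were lower. The differences were small: 0 of 8 were higher by 1.5-fold or more and 0 lower by as much. Among all 16347 genes with at least 200 UMIs, 38.3% were higher in HET, 6.29% were higher by 1.5-fold or more and 12.7% lower by 1.5-fold or more. The median log2 ratio of HET over WT was 0.066 for the 8 genes and -0.10 for all genes, so that a gene at 0 stood above the middle of the table.

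Among the early enzymes, *Hmgcs1* had 3442 UMIs in WT and 3474 in HET, or 49.0 and 52.5 CPM, a log2 ratio of 0.10 (0.03 to 0.17). *Idi1* had 1362 and 1667 UMIs, or 19.4 and 25.2 CPM, a log2 ratio of 0.38 (0.27 to 0.48). *Idi1* had the highest ratio of the 8 genes.

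In the squalene step, *Fdft1* had 2713 and 2794 UMIs, or 38.6 and 42.2 CPM, a log2 ratio of 0.13 (0.05 to 0.21). *Sqle* had 2204 and 2098 UMIs, or 31.4 and 31.7 CPM, at 0.02 (-0.07 to 0.10). *Lss* had 1491 and 1435 UMIs, or 21.2 and 21.7 CPM, at 0.03 (-0.07 to 0.14). The levels of *Sqle* and *Lss* could not be told apart between the libraries at this depth.

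In the sterol steps, *Cyp51* had 4698 and 5341 UMIs, or 66.8 and 80.7 CPM, at 0.27 (0.22 to 0.33). *Dhcr7*, at the end of the route, had 1667 and 1393 UMIs, or 23.7 and 21.1 CPM, at -0.17 (-0.28 to -0.07). The regulator *Srebf2* had 6138 and 5003 UMIs, or 87.3 and 75.6 CPM, at -0.21 (-0.26 to -0.15). *Dhcr7* and *Srebf2* were thus the 2 genes lower in HET, and *Srebf2* is not an enzyme of the route.

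The interval lay above 0 for 4 genes (*Hmgcs1*, *Idi1*, *Fdft1* and *Cyp51*) and below 0 for *Dhcr7* and *Srebf2*. Of the 5083 genes with as many UMIs as these 8, 25.9% had an interval above 0 and 53.8% one below it, so the interval excluded 0 for most genes of this depth. The libraries differed in cell makeup, and in bulk sums fewer cells of a type and less RNA per cell cannot be told apart, which is why the clusters are given next.

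In neuron.1 (5032 WT and 4079 HET nuclei), 3 of the 8 genes were higher in HET and 5 lower, against 41.5% of all genes higher. The interval lay above 0 for *Idi1* at 0.34 (0.20 to 0.48) and *Cyp51* at 0.16 (0.08 to 0.23), and below 0 for *Dhcr7* at -0.24 (-0.37 to -0.12) and *Srebf2* at -0.23 (-0.30 to -0.16). The shares of all genes of this depth were 21.6% above and 52.1% below. The median of the 8 genes was -0.03 and that of all genes -0.09. *Hmgcs1* (-0.07), *Fdft1* (0.03), *Sqle* (-0.05) and *Lss* (-0.01) could not be told apart between the libraries. Over all neuronal clusters together, *Hmgcs1* was at -0.09 (-0.17 to -0.006) and *Sqle* at -0.12 (-0.22 to -0.01). *Dhcr7* (-0.24) and *Srebf2* (-0.31) also had intervals below 0 there, and *Idi1* (0.29) and *Cyp51* (0.17) had intervals above 0. Those of *Fdft1* and *Lss* included 0, and the share of all genes was not counted for this sum.

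In oligo (1767 WT and 2382 HET nuclei), the 6 enzymes of the group other than *Dhcr7* each stood higher in HET. *Hmgcs1* had 531 UMIs in WT and 933 in HET, a log2 ratio of 0.38 (0.23 to 0.54). *Idi1* had 191 and 391 UMIs, at 0.60 (0.35 to 0.86), and was the 1 gene of the 8 past 1.5-fold. Of all 14867 genes in oligo, 1562 were higher by 1.5-fold or more. *Fdft1* was at 0.26 (0.09 to 0.43), *Sqle* at 0.34 (0.14 to 0.55), *Lss* at 0.33 (0.02 to 0.66) and *Cyp51* at 0.36 (0.22 to 0.51). These 6 genes had intervals above 0 and 0 of the 8 one below, where 17.8% of the 4568 genes of this depth lay above and 36.3% below. *Dhcr7*, at -0.04 (-0.35 to 0.27), and *Srebf2*, at -0.07 (-0.21 to 0.07), could not be told apart between the libraries. So 6 of 8 were higher in HET, against 41.2% of all genes in this cluster, and the median was 0.34 against -0.10 for all genes.

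The oligo cluster was made of different subclusters in the 2 libraries. Of 4 deposited subclusters, number 2 held 768 WT and 789 HET nuclei, number 7 held 133 and 730, number 6 held 39 and 827, and number 8 held 825 and 35. In subcluster 2, which both libraries filled, *Hmgcs1* was at 102 and 161 CPM in the WT and HET library, with a ratio of 0.66 on the log2 scale (0.44 to 0.88). *Idi1* was at 0.75 (0.38 to 1.12) and *Lss* at 0.62 (0.16 to 1.09) there, *Fdft1* at 0.30, and *Cyp51* and *Sqle* both at 0.29, with the *Sqle* interval reaching below 0. The median of the 8 genes in subcluster 2 was 0.30. In subcluster 7 the order was another: *Fdft1* was at 0.74 (0.29 to 1.23), *Sqle* at 0.72 (0.19 to 1.30) and *Cyp51* at 0.42 (0.10 to 0.76), and *Hmgcs1* was at 0.02 (-0.34 to 0.40). *Dhcr7* was lower in HET in each of the 4 subclusters, with intervals that all included 0. In the oligo cluster the 4 neuronal markers were all higher in HET, and their part in these ratios was not tested. The interval of the oligo to neuron.1 ratio lay above 1 for 6 of the 8 genes in both libraries. For *Lss* and *Dhcr7* it did so only in HET. What these levels mean for the HET over WT ratios in oligo was not tested.

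In astro (609 WT and 709 HET nuclei), 6 of the 8 genes were higher in HET, against 40% of all genes, and the median was 0.13 against -0.11. The interval lay above 0 for *Lss* at 0.97 (0.30 to 1.67), *Fdft1* at 0.34 (0.05 to 0.63) and *Cyp51* at 0.28 (0.05 to 0.52), and below 0 for none. Of the 6344 genes of this depth, 9.8% lay above and 24% below. The *Lss* ratio rests on 27 UMIs in WT and 65 in HET. In nuclei that both deposited labels name astrocytes, *Lss* was at 0.95 and *Cyp51* at 0.25, while the *Fdft1* interval took in 0 (-0.03 to 0.55). *Hmgcs1* (-0.16, -0.40 to 0.07) and *Sqle* (-0.26, -0.65 to 0.13) were lower in HET within counting error. Neuronal markers summed to 1278 CPM in WT and 1637 CPM in HET astro nuclei, and the 5 oligodendrocyte markers to 2368 and 2309 CPM. The part of such RNA in the astro levels and in the *Lss* ratio was not tested.

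**Figure D3:**
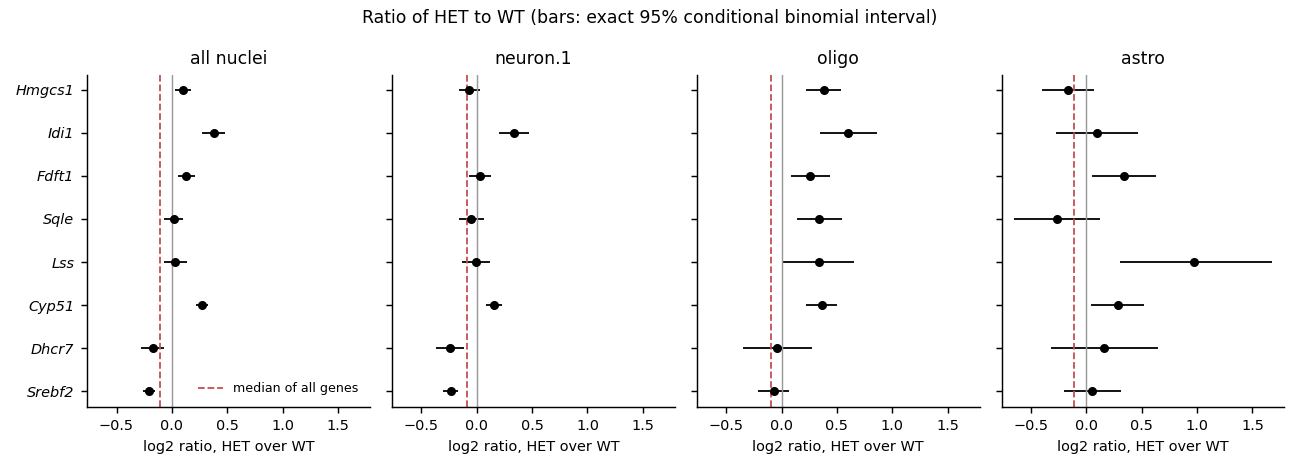
Log2 ratio of HET over WT for the 8 genes in all nuclei, neuron.1, oligo and astro (points, with exact 95% conditional binomial intervals), beside the median of all genes (red dashed line). In oligo 6 genes lie between 0.26 and 0.60 with intervals above 0, and *Dhcr7* and *Srebf2* lie at -0.04 and -0.07.

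The smaller clusters gave wide intervals. *Cyp51* was higher in HET in neuron.2 at 0.46 (0.09 to 0.82), in neuron.4 at 0.55 (0.20 to 0.91) and in fibro at 1.13 (0.25 to 2.07, from 17 and 34 UMIs). *Hmgcs1* in fibro was at 0.81 (0.06 to 1.59), but the second label named fibroblasts for only 40 of the 266 nuclei of fibro. *Srebf2* was lower in HET in neuron.3, at -0.63 (-1.01 to -0.25), and so was *Lss*, at -0.82 (-1.53 to -0.10). In endo, micro, epend.1, neuron.5 and neuron.7 the intervals of all 8 genes included 0. The share of all genes with intervals that excluded 0 was not counted in these smaller clusters. The values are thus not read as particular to the 8 genes.

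*Srebf2* differed from the other 7 genes in how its UMIs lay over nuclei. In the WT library 18 nuclei, all neuronal, held 10 or more *Srebf2* UMIs each, 520 in all, which is 8.47% of its UMIs. In the HET library 8 nuclei, 7 of them neuronal, held 130, or 2.60%. The highest counts were 93, 76 and 65 in WT nuclei of neuron.8, neuron.4 and neuron.1 and 31 in a HET neuron.1 nucleus. None of the other 7 genes had more than 10 UMIs in any nucleus. Without these nuclei the *Srebf2* ratio over all nuclei was -0.12 (-0.18 to -0.06) and that in neuron.1 -0.17 (-0.24 to -0.10), both still below 0. In neuron.4 it was -1.28 with all nuclei and -0.35 (-0.65 to -0.04) without 4 WT nuclei. The WT nuclei of neuron.4 held 267 *Srebf2* UMIs with these 4 nuclei and 134 without them.

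The other enzymes of the route differed among themselves. Among all nuclei, 9 of 14 further enzymes were higher in HET, against 38.3% of all genes, and 5 lower, and their median log2 ratio was 0.056. *Fdps*, farnesyl diphosphate synthase, which stands between *Idi1* and *Fdft1*, was at -0.72 (-0.84 to -0.60) and was the 1 enzyme lower by 1.5-fold or more. *Fdps* is 8.37 kb long, and all genes under 10 kb had a median of -0.36. The part of gene length in its ratio was not tested. It overlaps *Gm43738* on the same strand, a gene absent from the counts. *Tm7sf2*, a sterol reductase, was highest at 0.32 (0.14 to 0.49). It overlaps *Vps51* on the same strand, with 391 UMIs in WT and 434 in HET.

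In oligo the 14 enzymes had a median of 0.13, with 8 higher, against 41.2% of all genes, and 6 lower. *Fdps* was at -0.77 (-1.03 to -0.52), from 50.0 CPM in WT to 29.3 CPM in HET, between *Idi1* at 0.60 and *Fdft1* at 0.26. In neuron.1 the 14 enzymes split evenly, 7 and 7, with a median of -0.02, where 41.5% of all genes were higher. In astro 6 were higher, against 40% of all genes, and 8 lower, with a median of -0.04. *Fdps* was at -0.71 in neuron.1 and at -0.97 in astro, lower in HET in each of these clusters.

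**Figure D4:**
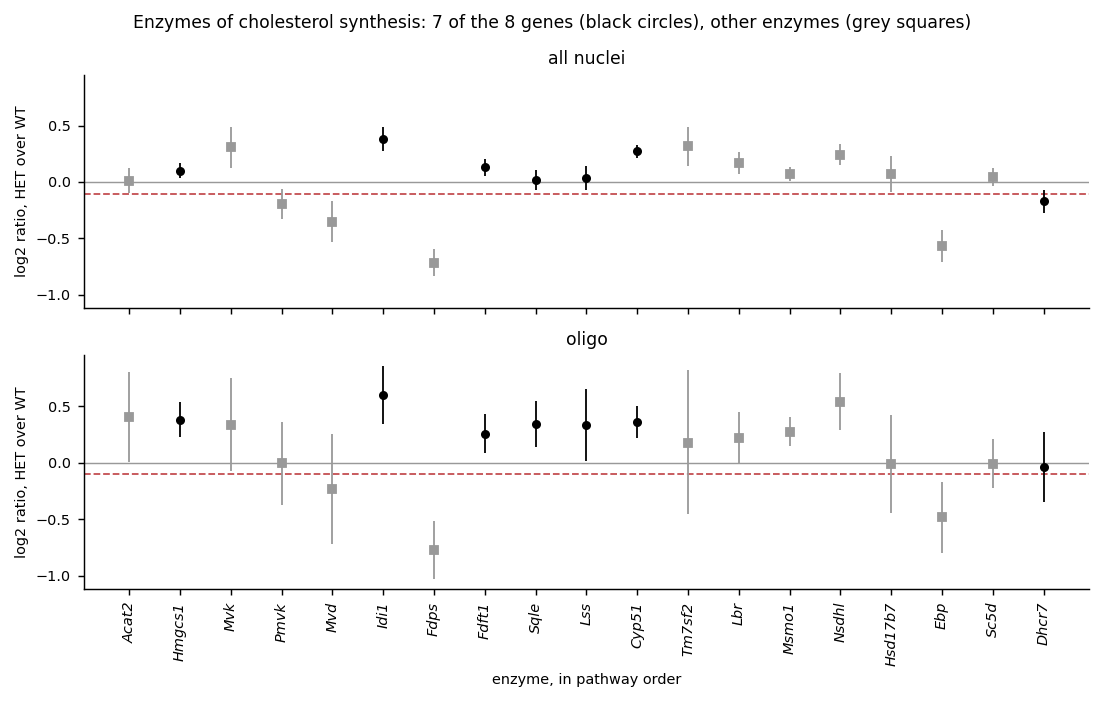
Log2 ratio of HET over WT (points, with exact 95% intervals) for the 7 enzymes among the 8 genes (black circles) and 12 other enzymes (grey squares) in the order of the route, over all nuclei (top) and in oligo (bottom), with *Tm7sf2* and *Lbr* at the same step. The red dashed line is the median of all genes, and *Fdps* lies lowest, at -0.72 and -0.77.

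Among 10 genes that control SREBP, 4 were higher in HET, against 38.3% of all genes, and 6 lower, with a median of -0.03. *Insig1*, an SREBP2 target that holds SREBP in the endoplasmic reticulum, was at 0.36 (0.26 to 0.45) over all nuclei and 0.48 (0.28 to 0.69) in oligo. *Insig2* was lowest of the list at -0.41 and *Erlin2* highest at 0.46. So the 2 INSIG genes differed in direction.

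In the branch from isoprenoids to ubiquinone, dolichol and prenylated proteins, 3 of 8 genes were higher and 5 lower, with a median of -0.08. Of all genes 38.3% were higher. *Ggps1*, which makes geranylgeranyl diphosphate, was lowest at -0.74, and *Pdss1* highest at 0.14. *Ggps1* overlaps *Arid4b* (12494 UMIs in WT and 13108 in HET) and *Pdss1* overlaps *Abi1* (6955 and 7141). Of 15 genes of uptake, carriers, storage and efflux, 6 were higher, against 38.3% of all genes, and 9 lower, with a median of -0.05. *Apoe*, the main lipid carrier of brain, was at -0.04 (-0.08 to -0.01), *Nr1h3* at 0.50 and *Npc2* at -0.44.

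Of 8 fatty acid synthesis genes, 6 were higher, against 38.3% of all genes, and 2 lower, with a median of 0.08. *Scd1*, a desaturase, was highest at 0.91 (0.73 to 1.09), and *Scd2*, its paralog with the more UMIs, was lowest at -0.03. *Acss2*, which makes acetyl-CoA from acetate, was at 0.62 (0.58 to 0.66) over all nuclei and 0.82 (0.69 to 0.94) in oligo. *Acss2* overlaps 3 counted genes on the opposite strand: *Gss* had 4456 UMIs in WT and 6990 in HET, *Acss2os* 749 and 1142, and *Ggt7* 6749 and 5401, so its ratio is uncertain where strand was not used.

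Across the 24 cluster sums (12 clusters in 2 libraries), the 8 genes followed each other to varying degrees. The Pearson correlations of log2(CPM + 1) over the 28 pairs ran from 0.20 to 0.90, with a median of 0.60. The highest pair median over 7 partners was that of *Hmgcs1* (0.69) and the lowest that of *Lss* (0.41). Among the genes outside the group most like its mean were *Msmo1* (0.90), a sterol methyl oxidase of the same route, *Acly* (0.82), *Nkx2-2os* (0.82), *4933431E20Rik* (0.80), *Gm48742* (0.78), *Insig1* (0.77), *Lpo* (0.77), *Cdh10* (0.77) and *Neo1* (0.76). Points of 1 library share its depth and free RNA, and small clusters weigh as much as large ones, so these values are a description.

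Gene length went with the HET over WT ratio across the table. The median log2 ratio was -0.36 for genes under 10 kb, -0.18 from 10 to 30 kb, -0.05 from 30 to 100 kb and 0.10 over 100 kb, and in oligo the medians were -0.35, -0.18, -0.05 and 0.13. *Idi1*, the shortest of the 8 genes, stood 0.74 above the median of its band over all nuclei, and *Cyp51* stood 0.45 above. *Dhcr7* was at 0.01 relative to its band over all nuclei. Within clusters *Dhcr7* was at 0.16 in astro, -0.04 in oligo and -0.24 in neuron.1. The medians of its band there were -0.22, -0.18 and -0.16. *Srebf2*, in the band from 30 to 100 kb, lay below its band. The part of gene length in these ratios was not tested further.

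**Figure D5:**
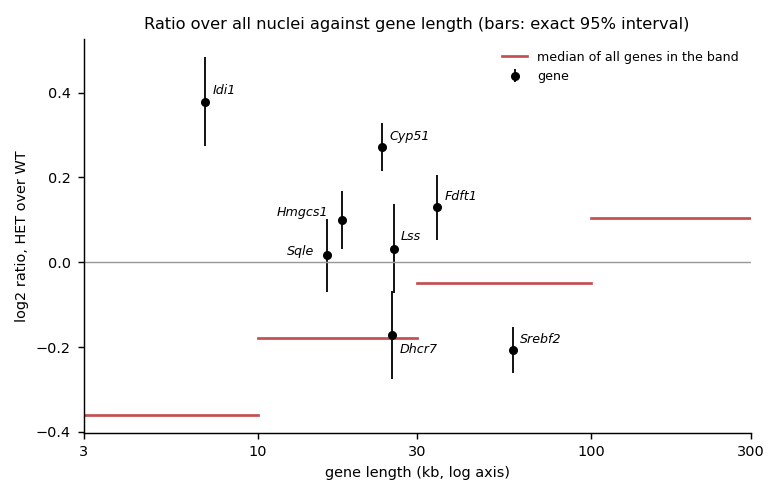
Log2 ratio of HET over WT over all nuclei (points, with exact 95% intervals) against gene length in kb (log axis) for the 8 genes, with the median of all genes in each length band as a red line. *Idi1* lies at 0.38 where its band lies at -0.36, and *Dhcr7* lies at the median of its band.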

How the data were processed

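The authors deposited raw UMI counts per gene and nucleus with a table of cluster names, quality percentages and doublet scores. Per the labels and methods, nuclei of flash-frozen brainstem were run on the 10x 3′ v3.1 platform, aligned with Cell Ranger to mm10 and handled in Seurat 4.1. Nuclei with fewer than 1000 genes or over 15% mitochondrial UMIs, and mitochondrial, hemoglobin and a few other genes, were removed by the authors. The deposited percent values are the shares of mitochondrial and ribosomal protein UMIs in a nucleus. The deposited doublet score comes from a caller not named in the methods, and all 18281 nuclei were marked singlets, so no caller was run. Clusters and both cell labels were used as deposited, with subclusters at resolution 0.8. There were 0 columns of other samples.

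UMIs were summed per library over all nuclei or over a cluster with at least 30 nuclei per library, and expressed as CPM with exact Poisson intervals. Log2 ratios of HET over WT have exact conditional binomial intervals. Shares at equal depth are expected shares after thinning to 1000 UMIs per nucleus. No nucleus of the clusters shown had fewer. Values over all nuclei rest on 1362 to 6138 UMIs per gene and library. With 1 library per genotype no test was run. Genes needed 200 UMIs over all nuclei or 20 in a cluster. Positions came from GENCODE vM21 and promoters from RefSeq (GRCm38.p6). Interval code was tested on simulated data before use. Sums and intervals were computed with scipy 1.17.1 and numpy 2.4.6 in Python 3.11.15, tables with pandas 2.3.3 and plots with matplotlib 3.10.9.

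The 8 genes, the 5 other pathway lists and the markers were written by hand with earlier results of these data known. The named genes are the 8, the highest and lowest of each list over all nuclei, *Insig1*, *Apoe*, *Acss2* and a few more, and the 10 genes most alike across clusters. Some genes under this rule are not reported here. Overlapping genes with counts were named for the 8 genes and for the main examples of the other lists, and markers beside the clusters. Alternatives were other scalings, equal cluster weights, deeper nuclei, the mean over nuclei, nuclei without the 5% highest doublet scores, other minimum counts, nuclei with matching labels and, chosen after seeing the data, oligo subcluster 2 alone, *Srebf2* without nuclei of 10 or more of its UMIs, and ratios relative to genes of like length. Metabolite, protein and physiological measurements of the study were not analysed here.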

Additional observations from a re-analysis of the deposited data

Results flagged for a closer look

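*Lss*, lanosterol synthase, differed in direction between clusters: its log2 ratio of HET over WT was 0.97 in astro, 0.33 in oligo and -0.82 in neuron.3, with intervals that excluded 0 in all 3 clusters. Each of these ratios compares 1 WT with 1 HET library, and the difference between the clusters was not tested. *Lss* and these 3 clusters were picked from the same values because their intervals lay on opposite sides of 0. The interval in neuron.3 (-1.53 to -0.10) rests on 32 UMIs in WT and 39 in HET. That in oligo reaches down to 0.017. In the other clusters the *Lss* interval included 0. The share of all genes with intervals that excluded 0 was not counted in neuron.3.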

How the results depend on the processing

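No paired analysis was possible because each genotype has 1 library. The median of all genes lay at -0.10 on the log2 scale, so centring on it raised every ratio over all nuclei by that amount: the median of the 8 genes over all nuclei went from 0.066 to 0.17, and that in neuron.1 from -0.03 to 0.07. Relative to genes of like length these medians were 0.20 and 0.10. *Dhcr7* over all nuclei changed direction, from -0.17 to 0.0073, relative to genes of like length. The count of genes lower by 1.5-fold stayed at 0 under each alternative run. The oligo median ran from 0.25 to 0.51, the astro median from 0.06 to 0.39 and the neuron.1 median from -0.07 to 0.10. Of 57 alternatives for single genes, 43 stayed within the interval of the main value and 13 moved beyond it in the same direction, and of 41 for medians and counts, 38 stayed within it. The cause of these shifts was not tested. Depth limits the small clusters: *Fdft1* in fibro, with 8 and 15 UMIs, had an interval from -0.29 to 2.49.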
